A study of Rattus norvegicus with 119 samples.

Results

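Intact tissue was compared with dissociated cells in 2 parts of the newborn female rat urogenital sinus, the ventral mesenchymal pad (VMP) and the urethra next to it (SU). The members were the 4 bulk libraries of a series of 119 samples, taken by the tissue and assay in their labels: 1 Tag-seq library of pooled tissue and 1 RNA-seq library of pooled dissociated cells for VMP, and the same for SU. The 49 VMP and 66 SU single cells, which were dissociated in the same way, were summed within a tissue and used as a further reading. The study kept 49 VMP cells after its quality control but fewer SU cells than these 66. No cell was removed here, so the SU readings can include cells that the study left out. The rats were Wistar females on the day of birth (P0), according to the labels of the Tag-seq samples. No treatment and no altered genotype is named. Microdissected tissues were pooled, so no library stands for 1 animal. For RNA-seq and for the single cells the tissue was digested with collagenase and passed through a strainer, and the study describes the urethral epithelium as left behind at that step.

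VMP is a condensed mesenchyme on the ventral side of the female urethra that can induce prostatic growth, and SU holds periurethral stroma, smooth and striated muscle and the urethral epithelium. Collagenase frees stromal cells from their matrix, while epithelial sheets and muscle fibres tend to remain whole. Cells taken from a tissue are known to switch on immediate early genes and chaperones within a short time at body temperature. Tag-seq reads 1 short tag beside an NlaIII site of each polyadenylated transcript, whereas the RNA-seq of cells amplified whole cDNA and read fragments along it. A ratio of dissociated cells over tissue therefore held dissociation, cell composition and assay chemistry at once, and these cannot be told apart in this design.

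The libraries held 7870450 (VMP) and 8215177 (SU) counts on genes for tissue, and 4397699 and 7007767 for dissociated cells. The single cells held 248738 to 1200734 counts in VMP and 199849 to 1488320 in SU. With 1 library per tissue and assay there was no replicate within a group and no test within a tissue, so genes are described by their level in CPM (each count divided by its library total and scaled to a common total), by the ratio of CPM, and by intervals at 95% that cover counting error only. A count of 0 allows up to 3 counts, which was 0.381 CPM in VMP tissue, 0.365 in SU tissue, 0.682 in VMP cells and 0.428 in SU cells. Counts under 3 were set to 3 in the ratios, and a fold against 0 counts is written as at least that fold. In bulk libraries, fewer cells of a type and less RNA per cell cannot be told apart.

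Of 32662 genes in the tables, 10021 reached 10 CPM in at least 1 of the 2 libraries of both tissues and were compared. Another 1015 did so in VMP alone and 952 in SU alone, and were left out. The median log2 ratio of dissociated cells over tissue was 0.42 in VMP, with quartiles of -1.30 and 3.33, and 0.63 in SU, with quartiles of -1.35 and 3.33. Scaling by TMM lowered these medians to 0.04 and 0.27, and DESeq2 size factors lowered them to -0.010 and 0.15. The ratios of the 2 tissues moved together across genes (Pearson 0.923, Spearman 0.911, n = 10021), and 8687 genes (86.7%) lay on the same side of 0 in both. These points share the assay and the gene, so the correlation is a description of the libraries. The difference of the ratios, SU minus VMP, had a median of -0.03 and was larger than 8-fold for 378 genes (3.77%).

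The levels were closer within an assay than within a tissue. Over the compared genes, Spearman's coefficient of CPM was 0.931 between the tissue libraries and 0.826 between the pools of dissociated cells. Between tissue and dissociated cells it was 0.206 in VMP and 0.133 in SU, which the minimum of 10 CPM in 1 of the libraries lowers. Over the 23469 genes with a count in any of the 4 libraries it was 0.638 in VMP and 0.619 in SU. The pools and the summed single cells had a coefficient of 0.729 in VMP and 0.772 in SU over the compared genes.

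**Figure D1:**
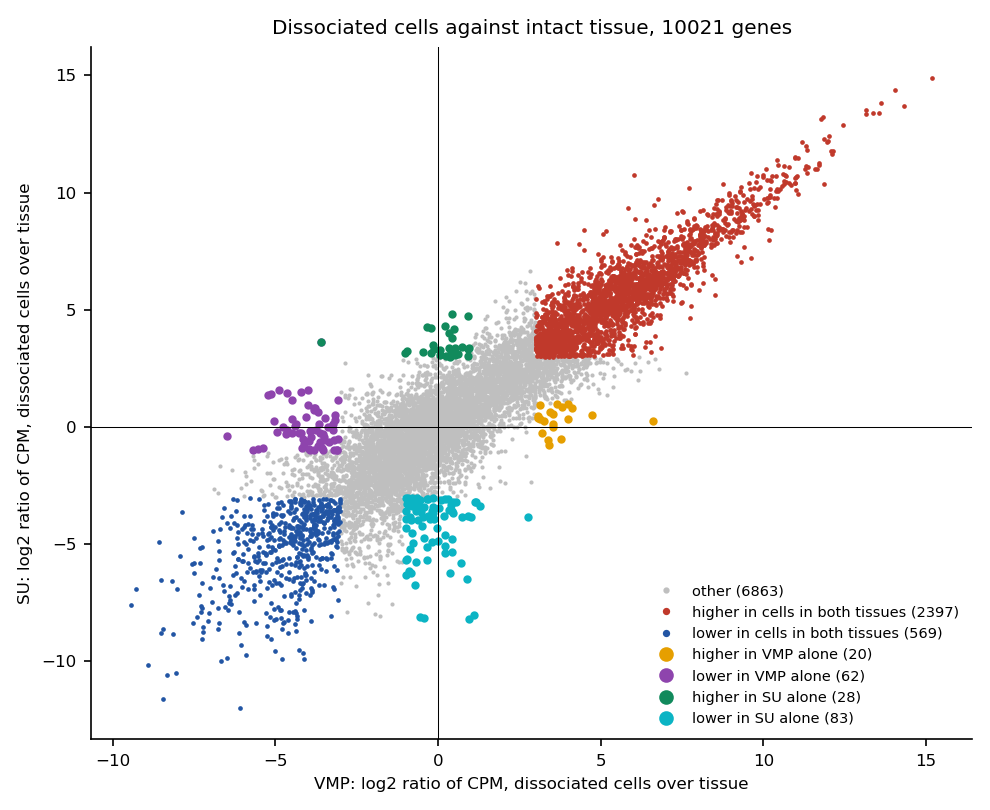
Log2 ratio of CPM in dissociated cells over intact tissue in VMP (x axis) and SU (y axis) for 10021 genes, with genes at least 8-fold apart in both tissues or in 1 tissue alone in colour. Most of the spread runs along the diagonal, with 2397 genes in the upper right and 569 in the lower left, and few genes lie at the arms where 1 tissue alone moved.

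A gene was called when the ratio was at least 8-fold. In VMP alone this gave 27.4% of compared genes higher in cells and 8.64% lower, and in SU 27.5% higher and 10.3% lower. In both tissues at once, 2397 genes (23.9% of compared genes) were higher in dissociated cells and 569 (5.68%) were lower. The summed single cells were at least 2-fold from tissue in the same direction in both tissues for 2203 of the 2397 (91.9%) and for 545 of the 569 (95.8%), and not for the other 194 and 24. Both ratios were taken over the same tissue counts, by which the genes were also called, so much of this agreement was set beforehand. The share of all compared genes at least 2-fold apart in the single cells was not computed. The single cells share dissociation and cDNA chemistry with the pools, so this reading does not separate one from the other.

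Part of the genes that were higher in cells had few tags or none. Of the 2397, 962 had fewer than 3 tags in both tissues and 822 had none at all. The 2397 genes took 0.837% of the counts of VMP tissue and 37.3% of those of VMP cells, and 0.731% and 36.1% in SU. The 822 genes without a tag alone took 12.5% of the VMP and 12.6% of the SU counts of dissociated cells. The authors discarded mitochondrial tags and name no such step for the cell libraries. A mitochondrial gene would thus have no tag through processing, and the part of such genes in these counts was not tested. With at least 3 tags required in both tissues, 1236 genes were higher and 569 lower, so that the higher genes made up 68.5% of both calls instead of 80.8%. TMM scaling gave 72.3% and DESeq2 size factors 70.4%. The 569 genes that were lower in cells took 11.5% of the counts of VMP tissue and 0.622% of VMP cells, and 17.7% and 0.578% in SU.

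Gene symbols were at hand for 1814 of the compared genes (18.1%), all of which the study had called different between VMP and SU in at least 1 assay, so the named genes are not a sample of all genes. Of the genes with a symbol, 72 (3.97%) were higher in cells in both tissues and 188 (10.4%) were lower. Their median log2 ratio was -1.06 in VMP and -0.77 in SU. At the edge of the rule, Clec14a was just inside with log2 ratios of 3.02 and 3.66, and Fap just outside with 4.53 and 2.90. For lower genes, Megf6 was just inside at -3.02 and -3.24 and Khdrbs3 just outside at -2.999 and -4.53. Among the genes without a symbol, ENSRNOG00000019834 had 0.127 CPM in VMP tissue, 4614 in VMP cells and 3141 in the summed VMP single cells, against 0.365, 3971 and 3184 in SU. On the lower side, ENSRNOG00000009068 had 333 CPM in VMP tissue, 0.455 in VMP cells and 0.0335 in VMP single cells, against 484, 0.143 and 0.362 in SU.

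Fos, the immediate early gene that codes for a subunit of the AP-1 transcription factor, was read by tags in both tissues and had among the largest ratios of the named genes. It lies at chr6:109300433-109303299 (Rnor_6.0). Its level was 2.41 CPM in VMP tissue, 1400 in VMP cells and 948 in the summed VMP single cells, and 11.2, 1761 and 974 in SU. Both dissociated readings were above tissue in both tissues, 580-fold for the VMP pool (log2 9.18, interval 8.54 to 9.91) and 157-fold for the SU pool (log2 7.30, interval 7.001 to 7.61). Fos reads were found in 49 of 49 VMP cells and in 66 of 66 SU cells. Per cell, the lowest, median and highest Fos levels were 7.73, 576 and 3249 CPM in VMP, and 5.47, 747 and 2722 in SU. In SU over VMP, Fos was 4.64-fold higher in tissue and 1.26-fold higher in the pools of cells.

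Matn2, a matrilin of the extracellular matrix, was read in all 3 assays. It had 60.9 CPM in VMP tissue, 3649 in VMP cells and 2346 in VMP single cells, against 13.4, 2032 and 992 in SU. The ratio of pool over tissue was 60-fold in VMP (log2 5.91, interval 5.77 to 6.04) and 152-fold in SU (log2 7.25, interval 6.98 to 7.53). VMP was above SU in each of the 3 assays, by 4.55-fold in tissue, 1.80-fold in the pools and 2.37-fold in single cells.

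The other named genes of this direction had few or no tags. Naa50, an N-terminal acetyltransferase, had no tag in either tissue and 165 and 489 CPM in VMP and SU cells, at least 432-fold and 1338-fold higher. Ogn, a small leucine-rich proteoglycan, had no tag in either tissue and 24.8 CPM in VMP cells against 638 in SU cells. Its single cells gave 27.4 CPM in VMP and 571 in SU. The gap between SU and VMP cells was 25.7-fold in the pools, and without a tag in either tissue it could not be read in intact tissue. Aspn, a proteoglycan of the same family, and Aspnl1, a gene of like name that may share reads with it and is uncertain for that reason, had no tag either, with 32.3 and 32.1 CPM in VMP cells and 108 and 168 in SU cells.

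Mthfd2, an enzyme of mitochondrial folate metabolism, had no tag in VMP and 0.365 CPM in SU, with 35.7 and 99.9 CPM in the cells. Dbi, an acyl-CoA binding protein, had 0.381 CPM in VMP tissue and 29.1 in VMP cells, and 1.34 and 89.9 in SU. Esco2, an acetyltransferase that acts on cohesin in S phase, had no tag in VMP and 0.122 CPM in SU, with 24.8 and 93.8 CPM in the cells. In the VMP single cells 71.0% of the Esco2 counts came from 1 cell.

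Among the genes lower in dissociated cells, Lgals7, a galectin of stratified epithelia at chr1:87045335-87047223, had 222 CPM in VMP tissue with VMP cells at 0, and 8173 CPM in SU tissue against 5.28 in SU cells. No single cell of either tissue had an Lgals7 read. The pool was at least 326-fold lower than tissue in VMP and 1548-fold lower in SU. Upk2, a uroplakin of the urothelial surface, had 61.6 CPM in VMP tissue and 400.5 in SU tissue, no count in VMP cells, 0.285 CPM in SU cells, and no read in any single cell. Aqp3, a channel for water and glycerol in epithelia, went from 72.4 to 0.455 CPM in VMP and from 1877 to 21.5 in SU.

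Other named genes of this direction were not epithelial markers. Chmp4bl1, named as a like gene of an ESCRT-III subunit, had 242 CPM in VMP tissue and 0.682 in VMP cells, and 1326 and 0.143 in SU. Hic1, a transcriptional repressor, had 426 and 0.227 CPM in VMP and 51.5 and 0.143 in SU. Vav2, a guanine nucleotide exchange factor, had 299 and 2.96 CPM in VMP and 437 and 0.143 in SU. Hic1 was the one of these 3 with more tags in VMP than in SU.

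Grik5, a kainate receptor subunit, had 459 CPM in VMP tissue and 1.59 in VMP cells, and 81.9 and 0.856 in SU. Its summed single cells held 15.2 CPM in VMP and 10.3 in SU, of which 1 cell gave 53.9% and 54%. Mmp15, a membrane-bound metalloproteinase, had 74.6 and 0.455 CPM in VMP and 447 and 1.14 in SU. Baiap2l1, a membrane-bending adaptor, had 59.8 CPM and no count in VMP and 351 and 1.57 CPM in SU, and Nrg2, a neuregulin, 137 and 1.59 in VMP and 62.9 and 0.285 in SU.

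**Figure D2:**
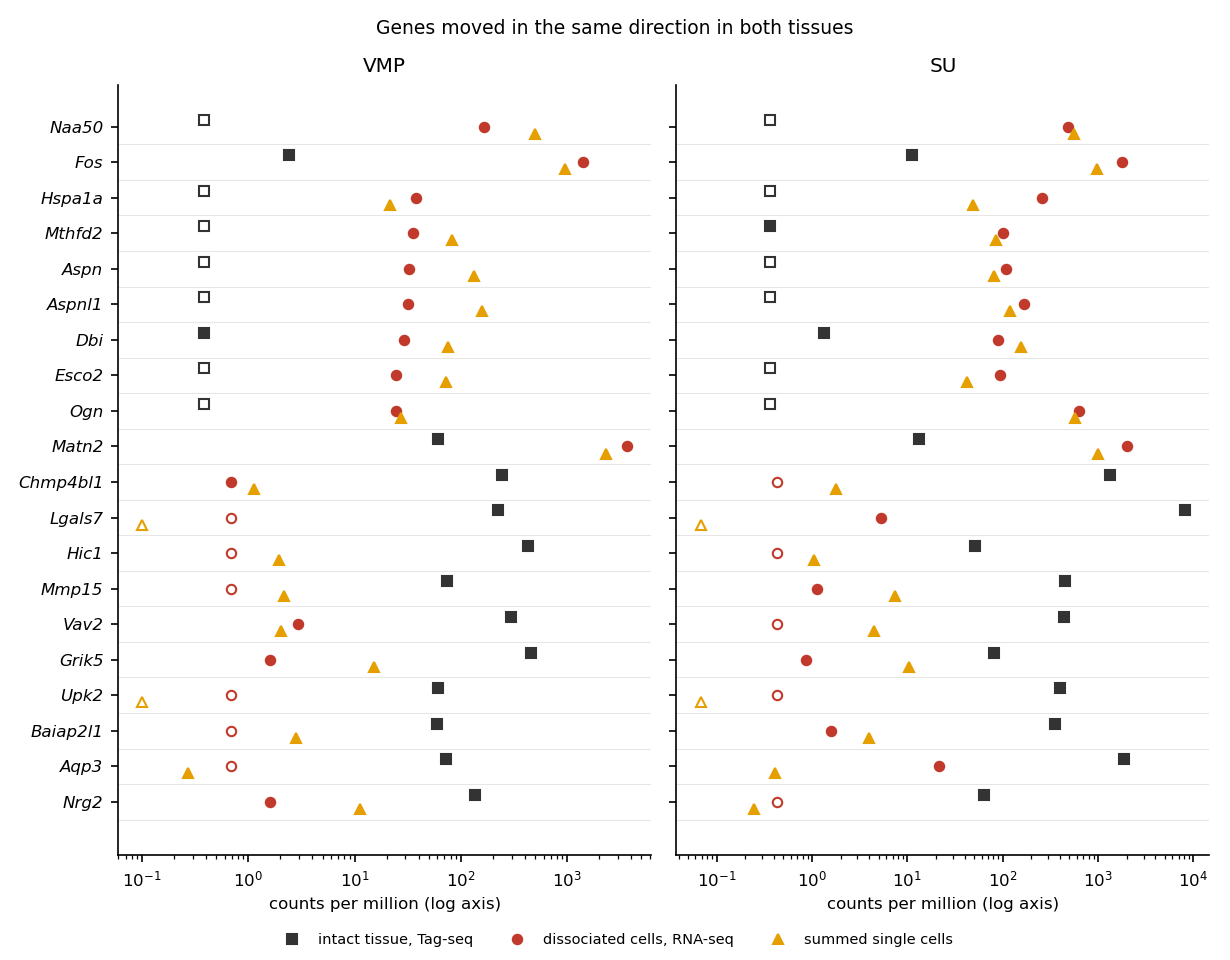
CPM (log axis) of the 20 named genes that moved at least 8-fold in the same direction in both tissues, in intact tissue (squares), pools of dissociated cells (circles) and summed single cells (triangles), with VMP on the left and SU on the right. Open symbols stand at 3 counts and mark libraries with fewer than 3 counts. The rule for naming genes took only genes whose single cells lay on the side of the pool, so that agreement is no result here. The levels run from Fos at 2.41 CPM in VMP tissue and 1400 in VMP cells to Lgals7 at 8173 CPM in SU tissue and 5.28 in SU cells.

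Summed over the 25 epithelial markers with an ID, of 26 on the list, the level was 1108 CPM in VMP tissue, 61.4 in VMP cells and 61.9 in VMP single cells, and 22323, 395 and 38.8 in SU. The sum in SU single cells was below that in SU pools, with 12 of 25 genes at 0 counts against 1 of 25. Of the 25, 15 passed 10 CPM in both tissues. In both tissues 11 of these 15 were at least 8-fold lower in cells, against 10.4% of genes with a symbol and 5.68% of all compared genes. Of the 15, 13 in VMP and 6 in SU passed the minimum through tissue alone and so had to be lower in cells, which leaves this count and the median log2 ratio of the 15 (-4.88 in VMP and -5.80 in SU) as a description only. The 10 markers that were not compared had log2 ratios from -2.97 to 0.84 in VMP, with 6 above 0, and from -6.45 to 5.02 in SU, with 1 above 0. Among them, Krt18, a keratin of simple epithelia, had log2 ratios of 0.42 in VMP and -0.19 in SU, and its partner Krt8 had -1.90 and -0.20.

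Epcam, the epithelial adhesion molecule, had 273 CPM in VMP tissue, 4.32 in VMP cells and 0.168 in VMP single cells, and 5526, 17.6 and 0.181 in SU. Cldn4, a claudin of tight junctions, had 124 CPM in VMP tissue with VMP cells and single cells at 0, against 1195, 44.4 and 2.31 CPM in SU. Krt15, a keratin of basal cells, had 68.1 CPM in VMP tissue with VMP cells at 0, and 1306 and 90.9 CPM in SU. Cdh1, the epithelial cadherin, had 50.4 and 2.73 CPM in VMP and 585 and 6.85 in SU, with no read in any single cell.

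The other 4 compared members were Esrp1, Dsp, Perp and Ovol1. Esrp1, an epithelial splicing factor, and Dsp, the desmosomal protein desmoplakin, were past 8-fold in SU only, with log2 ratios of -2.41 and -1.81 in VMP and -5.41 and -6.68 in SU. Perp, a desmosomal membrane protein, was lower in SU alone: it had 581 CPM in SU tissue, 21.5 in SU cells and 23.9 in SU single cells, against 29.1, 21.4 and 28.9 in VMP. Perp reads were found in 49 of 49 VMP and 66 of 66 SU cells, and its SU excess over VMP was 20-fold in tissue and 1.01-fold in the pools. Ovol1, an epithelial transcription factor, had 5.59, 10.2 and 7.72 CPM in VMP and 16.3, 17.4 and 1.47 in SU, where its log2 ratio of 0.09 became -0.27 under TMM and -0.38 under DESeq2 scaling. The SU pool stood above VMP for the epithelial sum (395 against 61.4 CPM), and its part in the SU results was not tested.

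Of 8 urothelial and mesothelial markers 5 had an ID and all 5 were compared. In both tissues 4 of them were lower in cells (Upk1a, Upk1b, Upk2 and Msln), against 10.4% of genes with a symbol and 5.68% of all compared genes. All 5 in VMP and 2 in SU passed the minimum through tissue alone and so had to be lower in cells. This leaves the count as a description only. Their sum was 255 CPM in VMP tissue, 2.96 in VMP cells and 1.01 in VMP single cells, and 1677, 54.9 and 0.679 in SU.

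Of 19 skeletal muscle list members 15 had an ID and 11 were compared, 5 of which were lower in both tissues and 2 in VMP alone. These shares were 10.4% and 2.59% for genes with a symbol, and 5.68% and 0.619% for all compared genes. In VMP 9 of the 11 passed the minimum through tissue alone, and in SU 2, and these had to be lower in cells. The 4 not compared had log2 ratios from -3.84 to 0.25 in VMP and from -4.25 to 0.83 in SU, with 1 above 0 in each tissue. Acta1, a skeletal muscle actin, was above tissue in VMP, with 8.51 CPM in tissue and 15.2 in cells, against 47.7 and 13.8 in SU. Myh3, the embryonic myosin heavy chain, had 412 CPM in VMP tissue and 3.41 in VMP cells, and 1689 and 19.98 in SU. Tnnc2, the troponin C of fast fibres, had 614 CPM in VMP tissue, 17.3 in VMP cells and 121 in VMP single cells, and 3158, 17.4 and 45.6 in SU. The list summed to 1741, 63.4 and 174 CPM in VMP tissue, cells and single cells, and to 7469, 526 and 220 in SU.

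The myogenic transcription factors Myf5, Myog and Myod1 had higher levels in SU cells than in VMP cells. Myf5 had 12.7 CPM in VMP tissue with VMP cells at 0, against 13.1 CPM in SU tissue, 37.1 in SU cells and 30.6 in SU single cells. Its reads were found in 24 of 66 SU cells and in 1 of 49 VMP cells. Myog had 61.5 CPM in VMP tissue and 4.55 in VMP cells, and 181 and 167 in SU. The SU single cells, at 0.927 CPM, did not hold the Myog level of the SU pool, and 9 of 66 had a read. Myod1, which was not compared, had 9.78 CPM, no count and 0.772 CPM in VMP tissue, cells and single cells, and 51.2, 9.70 and 2.87 in SU. Its reads were in 8 of 49 VMP cells and 18 of 66 SU cells. Actc1, the cardiac actin that is made in early striated muscle, had 13.7 and 2.96 CPM in VMP and 45.2 and 121 in SU.

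Only 3 of 13 genes on the smooth muscle list had an ID, and Ldb3 and Des among them are not particular to smooth muscle. In each tissue 2 of the 3 passed the minimum through tissue alone and so had to be lower in cells. Lmod1, a leiomodin, had 77 CPM in VMP tissue and 5.23 in VMP cells, and 261 and 2.00 in SU. Ldb3, which codes for a Z-disc protein, had 26.8 and 0.682 CPM in VMP and 90.4 and 2.14 in SU. Des, the intermediate filament desmin, had 575, 143 and 187 CPM in VMP tissue, cells and single cells, and 502, 28.4 and 15 in SU. Des was 17.7-fold lower in SU cells and 4.02-fold lower in VMP cells.

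Other cell types were represented by few genes. Of 4 neural and Schwann genes with an ID among 14, 2 were compared, and in each tissue these 2 passed the minimum through tissue alone. The 2 not compared had log2 ratios from -0.75 to -0.04 in VMP and from 1.05 to 2.58 in SU. Prph, a neuronal intermediate filament, had 74.8 CPM in VMP tissue and 0.682 in VMP cells, and 39.7 and 5.71 in SU.

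Of 10 erythroid genes 3 had an ID, and 1 was compared. This gene, Alas2 of haem synthesis, was lower in VMP alone with 40.9 CPM in tissue and 1.59 in cells, against 25.7 and 20.7 in SU. Alas2 passed the minimum in VMP through tissue alone and so had to be lower in VMP cells. The 2 erythroid genes not compared had log2 ratios from 0.10 to 2.96 in VMP and from 3.04 to 4.58 in SU. Of 14 leukocyte genes 2 had an ID, and Laptm5, a lysosomal protein of blood cells, had 20.2 CPM and no count in VMP and 39 and 6.71 CPM in SU. Laptm5 passed the minimum through tissue alone in both tissues. The other leukocyte gene, which was not compared, had log2 ratios of 4.58 in VMP and 1.12 in SU. None of the 5 endothelial genes with an ID, of 13, was 8-fold apart in both tissues. Cdh5, the endothelial cadherin, had 304 and 192 CPM in VMP tissue and cells and 93.7 and 114 in SU. Flt1, a VEGF receptor, was 14.3-fold higher in SU cells and 2.18-fold higher in VMP cells.

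Of 20 fibroblast and mesenchymal genes 11 had an ID and 9 were compared, and the SU ratio exceeded the VMP ratio in 9 of 9, against 54.1% of genes with a symbol and 49.1% of all compared genes. The count was 9 of 9 under TMM and DESeq2 scaling too. In SU 7 of 9 were above tissue and in VMP 2 of 9, against 40.6% and 31.1% of genes with a symbol. Of all compared genes, 57.9% in SU and 55.4% in VMP were above tissue. The sum over the list was 63041 CPM in VMP tissue, 25371 in VMP cells and 13053 in VMP single cells, and 49455, 58668 and 32985 in SU.

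Col1a1, a chain of type I collagen, had 21104, 5896 and 3237 CPM in VMP tissue, cells and single cells, and 7810, 12295 and 9310 in SU. VMP tissue was thus above SU tissue for Col1a1, and SU cells were above VMP cells in the pool and in the single cells. Col3a1 crossed over in the same way, with 14882, 8249 and 2937 CPM in VMP and 10923, 27490 and 10189 in SU. Dcn, the proteoglycan decorin, had 8476 CPM in VMP tissue and 6316 in VMP cells, and 2509 and 5742 in SU.

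Lum, the proteoglycan lumican, had 827, 518 and 699 CPM in VMP and 1563, 3717 and 4793 in SU. Per cell, its lowest, median and highest levels were 0, 31.4 and 6018 CPM in VMP and 110, 4262 and 16085 in SU. Col6a2, a chain of type VI collagen, was lower in cells in both tissues, 12.5-fold in VMP and 2.69-fold in SU. The pericyte genes had the same order: in 4 of 4 (of 8 on the list) the SU ratio was above the VMP ratio. This share was 54.1% of genes with a symbol and 49.1% of all compared genes, and 4 genes give a description only. In VMP 1 of the 4 passed the minimum through tissue alone and so had to be lower in cells. The ratios ran from Kcnj8, a potassium channel, at log2 -2.22 in VMP and 0.36 in SU to Abcc9, its partner subunit, at 0.74 and 3.41.

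**Figure D3:**
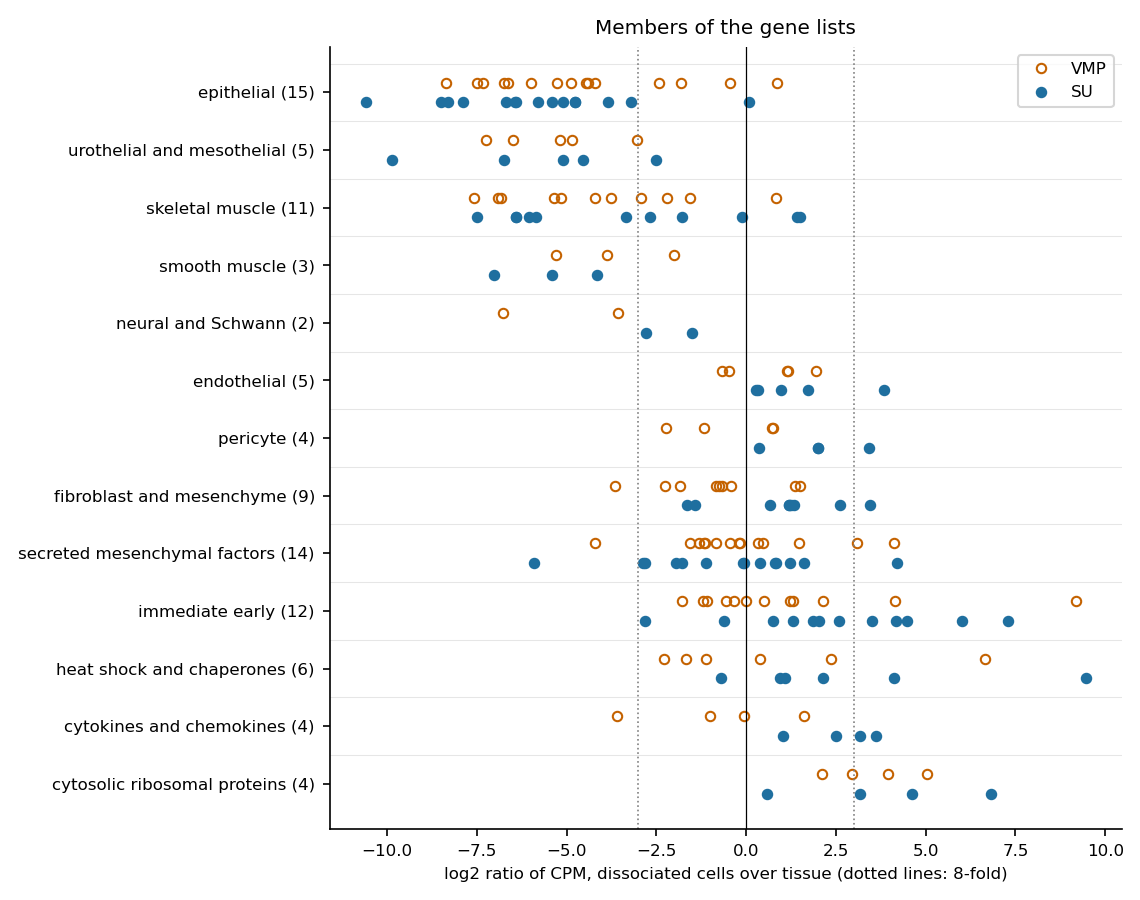
Log2 ratio of CPM in dissociated cells over tissue for each compared member of 13 gene lists (number of compared genes in brackets), with VMP as open and SU as filled circles and dotted lines at 8-fold. Epithelial and urothelial genes lie to the left of 0 in both tissues with Ovol1 as the exception on the right (in SU not so under TMM or DESeq2 scaling), while the fibroblast and pericyte genes lie further right in SU than in VMP.

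Immediate early genes were measured through 12 of 36 list members, all compared. In both tissues 2 of 12 were at least 8-fold higher in cells (Fos and Cyr61), against 3.97% of genes with a symbol and 23.9% of all genes. In SU 5 of 12 were 8-fold higher, against 8.71% of genes with a symbol and 27.5% of all genes, and in VMP 2 of 12, against 6.78% and 27.4%. The ratio was above 0 for 10 of 12 in SU and 7 of 12 in VMP (6 of 12 under TMM or DESeq2 scaling), against 40.6% and 31.1% of genes with a symbol and 57.9% and 55.4% of all genes. Since the list held 12 matched genes of 36, its counts are those of the matched genes only.

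Summed over the 12, the level was 404 CPM in VMP tissue, 2291 in VMP cells and 1819 in VMP single cells, and 463, 3853 and 2954 in SU. Without Fos the other 11 genes summed to 401, 891 and 872 CPM in VMP and 452, 2092 and 1980 in SU. Cyr61, a matricellular protein, had 2.67, 47.5 and 142 CPM in VMP and 5.96, 388 and 288 in SU, with reads in 48 of 49 and 66 of 66 cells. Dusp1, a phosphatase of MAP kinases, had 128, 564 and 208 CPM in VMP and 42.6, 957 and 476 in SU, with VMP tissue above SU tissue and SU cells above VMP cells.

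Fosb, a partner of Jun proteins, had 23, 56.8 and 177 CPM in VMP and 6.57, 74.2 and 217 in SU. Gadd45g, a stress sensor, was higher in SU alone, with 8.03 CPM in SU tissue, 145 in SU cells and 131 in SU single cells, and 26.2, 37.1 and 83.1 in VMP. Jund went the other way in the pools, with 31.4 CPM in VMP tissue and 9.10 in VMP cells, and 70.0 and 9.85 in SU, and passed 8-fold lower in SU under TMM and DESeq2 scaling. Klf4, a zinc finger factor, had 14.7 and 6.37 CPM in VMP and 22.3 and 90.8 in SU.

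Promoters of these genes are shown because the genes were among those furthest above tissue, or are textbook targets of stress pathways. RefSeq promoters (GRCr8, 250 bases before to 50 after the start) were found for 14 of 17 genes looked up from the immediate early and chaperone lists, 10 and 4 of them. On both strands, the cAMP response element TGACGTCA was present in 2 of 10 immediate early promoters (Jund and Dusp1) and in 1.83% of all 33469 promoters. The CArG box was in 0 of 10 (1.64% of all) and the AP-1 motif TGANTCA in 0 of 10 (7.33% of all). The paired heat shock units GAANNTTC and TTCNNGAA, which can overlap, were in 3 of 4 and 1 of 4 chaperone promoters, and in 8.59% and 8.77% of all. Each of these units was also in 1 of 10 immediate early promoters (Nr4a2 and Cyr61), and the AP-1 motif was in 1 of 4 chaperone promoters (Bag3). Capitals mark matches to the motifs of a gene's own list only, so the TTCNNGAA of Cyr61 is in lower case, and they describe the letters only. The promoters of Dusp1 (chr10:17184603-17184902, plus strand), Cyr61 (RefSeq Ccn1, chr2:237225640-237225939, minus strand, no match to the 3 immediate early motifs) and Hsph1 (chr12:10427118-10427417, plus strand, heat shock units in capitals) read as follows.
Dusp1: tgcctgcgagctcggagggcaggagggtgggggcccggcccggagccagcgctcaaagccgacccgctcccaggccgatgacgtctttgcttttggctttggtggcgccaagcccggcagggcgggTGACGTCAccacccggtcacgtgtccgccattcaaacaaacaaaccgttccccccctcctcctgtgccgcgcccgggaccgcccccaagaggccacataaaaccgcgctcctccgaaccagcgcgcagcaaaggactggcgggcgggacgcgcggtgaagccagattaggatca
Cyr61: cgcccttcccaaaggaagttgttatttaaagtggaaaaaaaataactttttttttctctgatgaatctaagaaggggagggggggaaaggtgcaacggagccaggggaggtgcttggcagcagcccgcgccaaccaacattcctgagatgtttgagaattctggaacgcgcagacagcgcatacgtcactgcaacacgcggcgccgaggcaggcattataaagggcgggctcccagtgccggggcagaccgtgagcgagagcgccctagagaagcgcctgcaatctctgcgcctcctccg
Hsph1: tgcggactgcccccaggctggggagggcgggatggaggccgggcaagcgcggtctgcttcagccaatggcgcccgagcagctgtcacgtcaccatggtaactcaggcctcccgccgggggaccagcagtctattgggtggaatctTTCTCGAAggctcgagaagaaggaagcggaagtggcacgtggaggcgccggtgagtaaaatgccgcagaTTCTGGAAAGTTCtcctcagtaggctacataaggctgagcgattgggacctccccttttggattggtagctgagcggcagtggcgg

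Chaperones were measured through 5 of 14 list members on 6 IDs. The SU ratio was above the VMP ratio for 6 of 6 IDs, against 54.1% of genes with a symbol and 49.1% of all compared genes. Under TMM and DESeq2 scaling it was so for 6 of 6 as well. Hspa1a, the inducible HSP70, is present under 2 IDs whose near-identical copies could split reads, so its levels are uncertain. The first ID, at chr20:2699712-2701815, had no tag in either tissue, 38.2 CPM in VMP cells and 258 in SU cells, and 21.7 and 49.2 in single cells. The second, at chr20:4877324-4879779, had 8.26 CPM in VMP tissue, 42.7 in VMP cells and 47.8 in VMP single cells, and 20.7, 356 and 203 in SU. Reads of the second Hspa1a ID were in 36 of 49 VMP cells and 66 of 66 SU cells.

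Hsph1, an HSP110 that recharges HSP70, had 104, 136 and 534 CPM in VMP tissue, cells and single cells, and 108, 475 and 1515 in SU. Hspb1, a small heat shock protein, had 48.5 and 15.2 CPM in VMP tissue and cells and 53 and 112 in SU. Bag3, a co-chaperone, had 184 and 84.4 CPM in VMP and 53 and 102 in SU. Hmox1, haem oxygenase, was lower in cells in both tissues, with 124 and 25.5 CPM in VMP and 40.5 and 25.0 in SU. The 6 IDs summed to 469, 342 and 662 CPM in VMP and 275, 1328 and 1910 in SU. The VMP pool was thus below VMP tissue while the VMP single cells were above it, and both SU readings were above SU tissue.

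**Figure D4:**
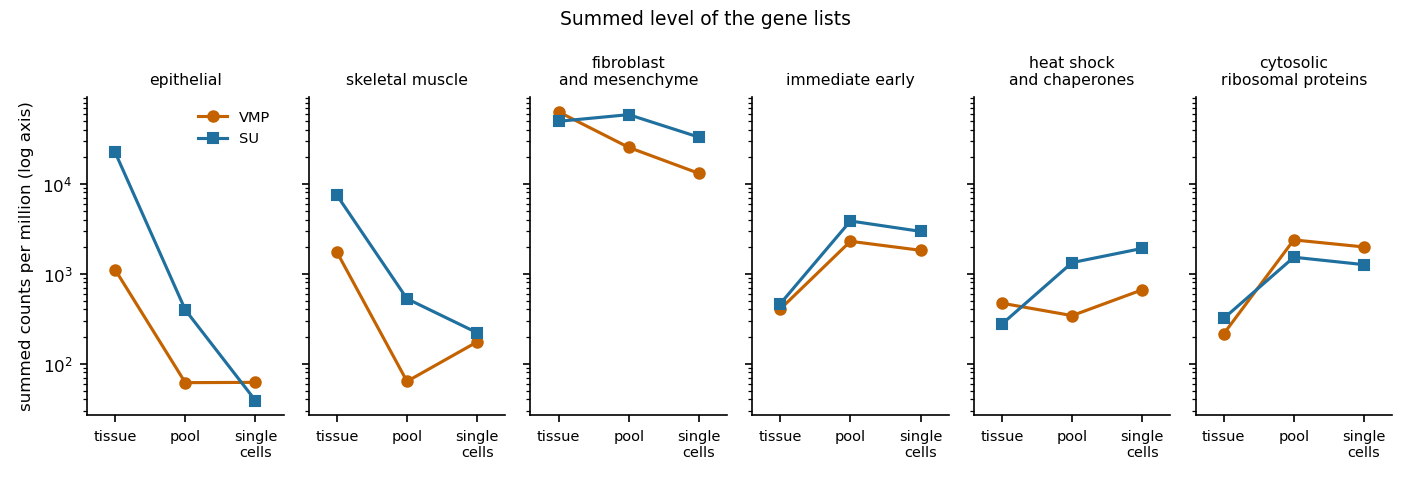
Summed CPM (log axis) of 6 gene lists in intact tissue, pools of dissociated cells and summed single cells, for VMP (circles) and SU (squares), with 1 library or 1 sum per point. Epithelial genes go from 22323 CPM in SU tissue to 395 in SU cells, immediate early genes from 463 to 3853, and chaperones part between the tissues, at 342 CPM in VMP cells and 1328 in SU cells.

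Housekeeping lists were thinly matched. Of the cytosolic ribosomal protein genes 5 had an ID and 4 were compared, all 4 with ratios above 0 in both tissues. The share above 0 was 31.1% (VMP) and 40.6% (SU) of genes with a symbol, and 55.4% and 57.9% of all compared genes. Rpl15 had 72.2 and 1126 CPM in VMP tissue and cells and 29.1 and 722 in SU, at least 8-fold higher in cells in both tissues. Pgam1, a glycolytic mutase, had 12.7 and 204 CPM in VMP and 3.90 and 350.0 in SU, while Hk2, a hexokinase, had 16 and 3.18 in VMP and 78.8 and 9.13 in SU. Atp5a1, a subunit of ATP synthase, had 24.8 and 840 CPM in VMP and 57.7 and 738 in SU. Of the G2/M genes, Cenpf had 76.1, 29.8 and 91.8 CPM in VMP and 129, 115 and 193 in SU, and Kif20b 20.6, 17.3 and 71.3 in VMP and 22.2, 108 and 131 in SU.

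Shifts in 1 tissue alone were far fewer. They were called when the ratio was at least 8-fold in one tissue and under 2-fold in that direction in the other. By this rule 20 genes (0.2% of compared genes) were higher in cells in VMP alone, 62 (0.619%) lower in VMP alone, 28 (0.279%) higher in SU alone and 83 (0.828%) lower in SU alone. The summed single cells were read over the same tissue counts as the pools, so their agreement was set in part beforehand. They held the shift of the moved tissue for 13 of 20, 54 of 62, 24 of 28 and 75 of 83. They held the whole pattern, with the other tissue under 2-fold as well, for 7 of 20, 27 of 62, 13 of 28 and 24 of 83. The genes with the largest differences, named below, were taken only from those that held it, so agreement of their single cells is no result. A part of the chemistry that acts on a gene equally in both tissues cancels in the difference of the 2 ratios, while differences in cell composition do not.

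Among genes higher in VMP alone, Cd24, a surface glycoprotein, had 13.1 CPM in VMP tissue, 206 in VMP cells and 233 in VMP single cells, and 59.5, 76.1 and 94 in SU. SU tissue was 4.55-fold above VMP tissue for Cd24, and VMP cells were 2.71-fold above SU cells. Cd24 reads were in 44 of 49 VMP cells and 39 of 66 SU cells. Ppl, the desmosomal protein periplakin, had 0.127 CPM in VMP tissue and 36.8 in VMP cells, and 12.2 and 14.7 in SU. In the VMP single cells 99.7% of the Ppl counts came from 1 cell.

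Sptlc3, a subunit of serine palmitoyltransferase, had 1.40, 19.3 and 4.16 CPM in VMP and 12.1, 8.42 and 0.860 in SU, with 98.4% of the VMP single-cell counts from 1 cell. Ermp1, a metallopeptidase of the endoplasmic reticulum, had 4.07 and 42.5 CPM in VMP tissue and cells and 18.9 and 12.8 in SU. Cd86, a co-stimulatory molecule of antigen-presenting cells, had 2.03, 18.6 and 4.16 CPM in VMP and 14.9, 12.6 and 7.06 in SU. Ermp1 and Cd86 lost the call under TMM and under DESeq2 scaling.

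Growth factors of the mesenchyme were part of this group. Fgf7, a ligand for an epithelial FGF receptor, had 11.6, 200 and 134 CPM in VMP tissue, cells and single cells, and 7.91, 14 and 24.5 in SU. VMP exceeded SU by 1.46-fold in tissue and 14.3-fold in the pools. Nell2, a secreted EGF-repeat protein, had 40.9, 346 and 200.2 CPM in VMP and 16.1, 21 and 9.55 in SU, with VMP over SU at 2.55-fold in tissue and 16.5-fold in the pools.

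The secreted factors as a list had median log2 ratios of -0.33 in VMP, from -4.22 to 4.11, and -0.08 in SU, from -5.91 to 4.22, over 14 compared genes (16 of 20 had an ID). Of the 14, 2 were higher in VMP alone (Fgf7 and Nell2), 1 was higher in SU alone (Wnt5a) and 1 was lower in both, against 0.882%, 1.16% and 10.4% of genes with a symbol. Over all compared genes these shares were 0.2%, 0.279% and 5.68%. Nell2 lost its call under TMM and DESeq2 scaling. The gene lower in both was Sfrp1, a secreted Wnt antagonist, with 764 and 41.2 CPM in VMP and 120 and 2.00 in SU. Fgf10, the FGF that drives branching in many organs, had 754, 549 and 452 CPM in VMP and 199.6, 28.4 and 20.5 in SU. Its VMP over SU fold was 3.78 in tissue, 19.3 in the pools and 22.0 in single cells, and neither ratio over tissue reached 8-fold. Under TMM and DESeq2 scaling its SU ratio did, at log2 -3.17 and -3.29, as did that of Rspo2, an activator of Wnt signalling, so that 3 of 14 were 8-fold lower in SU instead of 1.

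Among genes lower in VMP alone, Mcm10, a replication factor, had 33.9 CPM in VMP tissue, 0.910 in VMP cells and 16.5 in VMP single cells, and 19.0, 48.4 and 28.9 in SU. In the VMP single cells 87.6% of the Mcm10 counts came from 1 cell. Mrgprf, an orphan receptor, had 113, 3.41 and 42.8 CPM in VMP and 82.9, 99.6 and 97.1 in SU. Its SU over VMP fold was 0.731 in tissue and 29.2 in the pools, but 2.27 in single cells. Tal1, a transcription factor of blood and endothelial cells, had 10.8 CPM in VMP tissue with VMP cells and single cells at 0, and 4.38, 13.1 and 21.1 CPM in SU, where 1 cell gave 79.5% of the single-cell counts.

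Ccl7, a chemokine at chr10:69423086-69424979, was the only compared gene to pass 8-fold in opposite directions. It had 10.9 CPM in VMP tissue, 0.910 in VMP cells and none in VMP single cells, against 1.10, 13.4 and 1.70 in SU. The ratio was 12-fold lower in VMP (log2 -3.59, interval -5.49 to -2.18) and 12.2-fold higher in SU (log2 3.61, interval 2.63 to 4.79). Ccl7 passed the minimum of 10 CPM through tissue alone in VMP and through cells alone in SU. The opposite directions, though not their size, were thus set by that minimum. These values rest on 86 and 4 counts in VMP and 9 and 94 in SU. In the SU single cells 96% of the Ccl7 counts came from 1 cell, and reads were found in 3 of 66.

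Among genes higher in SU alone, Wnt5a, a non-canonical Wnt ligand at chr16:4469468-4489860, differed between the tissues in the cells but not in the tags. It had 27.6 CPM in VMP tissue, 23.9 in VMP cells and 19.8 in VMP single cells, and 28.2, 525 and 368 in SU. The tissues thus differed by 1.02-fold, and SU cells were 22.0-fold above VMP cells in the pools and 18.6-fold above in single cells. The SU ratio was 18.6-fold (log2 4.22, interval 4.02 to 4.41) and the VMP log2 ratio -0.21 (interval -0.56 to 0.14). Wnt5a reads were in 66 of 66 SU cells and 30 of 49 VMP cells, with per-cell medians of 211 and 1.47 CPM.

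Zeb2, a repressor tied to mesenchymal state, had 8.51, 10.7 and 4.06 CPM in VMP and 6.33, 101 and 95.4 in SU, with reads in 15 of 49 and 52 of 66 cells. Ptgs2, the inducible cyclooxygenase, had 17.9, 8.87 and 10.4 CPM in VMP and 9.86, 88.9 and 50.0 in SU. Zfp263, a zinc finger factor, had 20.6, 39.1 and 8.08 CPM in VMP and 2.07, 55.1 and 39.4 in SU, and Tstd3, named for a sulfurtransferase domain, 12.5, 6.37 and 16.2 in VMP and 2.31, 22.0 and 47.6 in SU. Zeb2, Ptgs2 and Tstd3 lost the call under TMM and under DESeq2 scaling. Cxcl12, a stromal chemokine, had 65.2, 63.0 and 44.1 CPM in VMP and 37.9, 214 and 24.3 in SU, so that the SU pool was above tissue and the SU single cells below it. Hbegf, an EGF-like ligand, was the fourth of 14 cytokine list genes with an ID, at 11.4 and 35.2 CPM in VMP and 34.8 and 70.5 in SU.

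Genes lower in SU alone formed the largest of these groups and took 1.59% of the counts of SU tissue and 0.109% of those of SU cells. In VMP the same 83 genes took 0.543% and 0.430%. Tnfsf13b, the cytokine BAFF, had 244, 328 and 248 CPM in VMP and 40.5, 0.999 and 0.249 in SU. Its reads were in 44 of 49 VMP cells and 3 of 66 SU cells, and VMP over SU was 6.01-fold in tissue and 328-fold in the pools. Linc00176 had 324, 221 and 205 CPM in VMP and 117.6 CPM in SU tissue, with no count in SU cells and 1 of 66 SU single cells with a read. The SU pool was at least 275-fold below SU tissue for Linc00176.

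Ptpru, a receptor tyrosine phosphatase, had 11.1, 23.9 and 18.4 CPM in VMP and 112 in SU tissue, with no count in SU cells or single cells. Prss8, an epithelial serine protease, had 11.9, 8.87 and 9.06 CPM in VMP and 122 CPM, no count and 1.85 CPM in SU. Lrrc1, a leucine-rich repeat protein of cell polarity, had 17.2, 28.2 and 16.4 CPM in VMP and 55.3, 0.999 and 11.4 in SU. In VMP single cells, 1 cell gave 80.5% of the Ptpru and 94.4% of the Prss8 counts. The epithelial list summed to 22323 CPM in SU tissue and 395 in SU cells, and its part in these SU shifts was not tested.

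**Figure D5:**
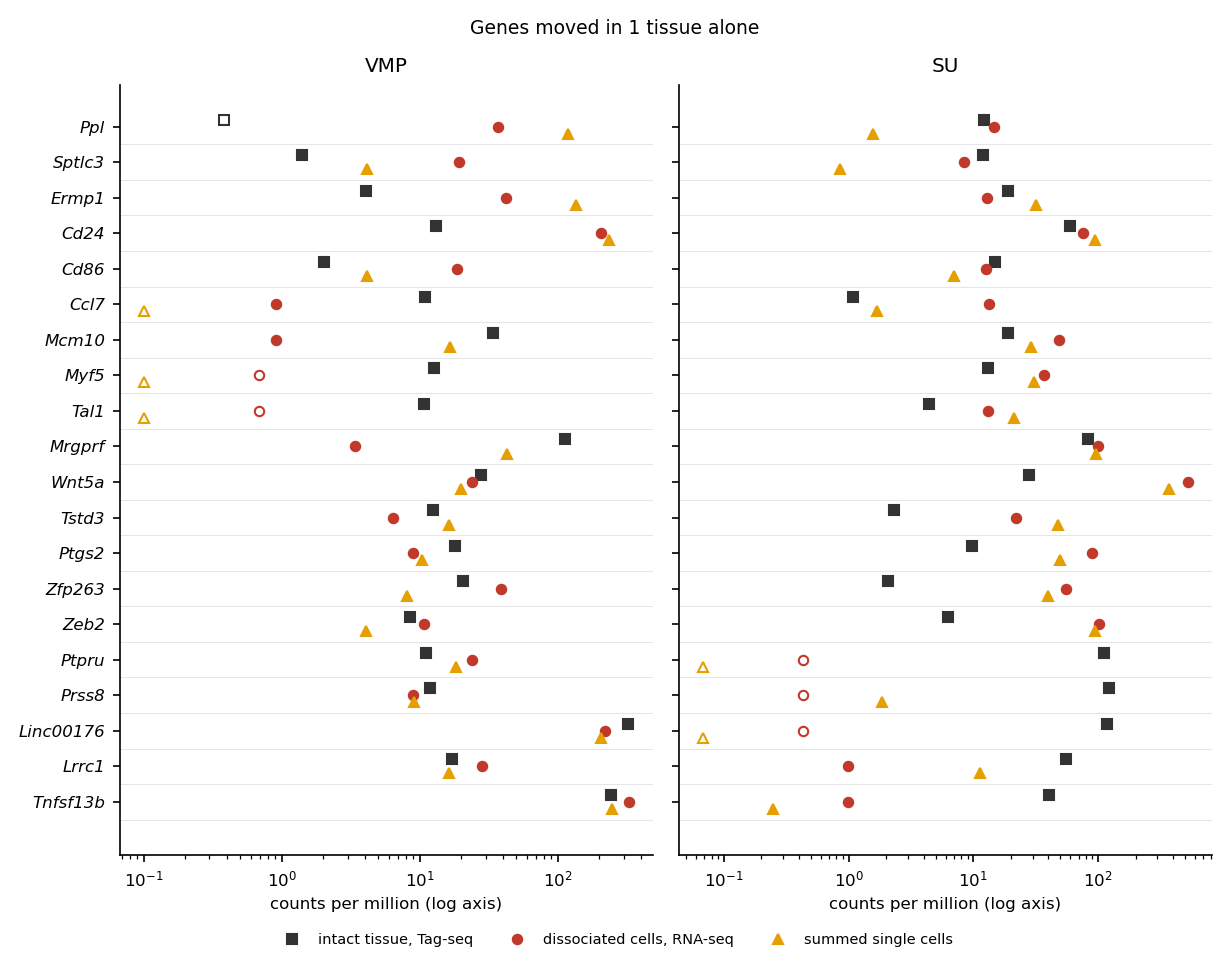
CPM (log axis) of the 20 named genes that moved at least 8-fold in 1 tissue and under 2-fold in that direction in the other, with the symbols of tissue, pools and single cells as in the plot of genes shared by both tissues. The rule for naming these genes took only those whose single cells held the whole pattern, so that agreement is no result here. Wnt5a lies at 19.8 to 27.6 CPM in the VMP readings and parts in SU between 28.2 CPM in tissue and 525 in cells, and Tnfsf13b lies at 244 to 328 CPM in VMP and parts in SU between 40.5 and 0.999.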

How the data were processed

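The values deposited by the authors are raw counts of reads per Ensembl gene in all 3 assays. Per the labels, reads were aligned to Rnor_6.0, Tag-seq with Bowtie2 and the cell libraries with TopHat after Trimmomatic 0.33, with Picard 1.128 also named. For Tag-seq the authors discarded mitochondrial and non-unique tags. How the bulk RNA-seq was aligned is not stated apart.

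From these counts, CPM, ratios and intervals were computed with Python 3.11.15, numpy 2.4.6, scipy 1.17.1 and pandas 2.3.3, and drawn with matplotlib 3.10.9. Libraries were grouped by tissue and assay label. Single-cell counts were summed per tissue; a shift was held when the sum was at least 2-fold from tissue. The 95 spike-in rows stayed out of library sizes. Ratios use exact conditional binomial intervals, shares of cells and sums exact binomial and Poisson intervals, all at 95%. With 1 library per tissue and assay, edgeR 4.0.16 (R 4.3.3) over the 4 libraries, with tissue as a block, and DESeq2 1.42.0 size factors were alternatives only. The fold rules and the edgeR fit were tested on simulated data.

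Named were the 10 genes with the largest smaller ratio in each direction among those moved in both tissues, the 5 with the largest difference for each tissue and direction among those moved in 1 tissue, in each case where a symbol existed and the single cells held the direction, and members of a gene list where it is described. For the 5 moved in 1 tissue, the single cells also had to stay under 2-fold in that direction in the other tissue. Members and lists were chosen with earlier results of these data known. Symbols and coordinates come from the study's tables of transcripts different between VMP and SU, which were held in part and pair 2995 IDs with symbols. Their fold changes and probabilities were not used. Medians are given for lists with at least 80% of members matched. Promoters are from RefSeq (GRCr8).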

Additional observations from a re-analysis of the deposited data

Results flagged for a closer look

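Ccl7 differed between the tissues by 7.20 on the log2 scale (SU ratio minus VMP ratio), because its only VMP ratio and its only SU ratio lay more than 8-fold on opposite sides of tissue. With 1 library per tissue and assay the difference was not tested, and it was 5.55 with a pseudocount of 5 counts, where Ccl7 no longer met the rule. The minimum of 10 CPM, passed through tissue in VMP and through cells in SU, had set both directions.

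Outside the gene counts, the spike-in rows took 1.30% of the VMP RNA-seq library and 1.12% of the SU RNA-seq library, against 13.6% of the summed VMP single cells and 12.6% of the summed SU single cells. The Tag-seq table has no such rows.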

How the results depend on the processing

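No paired analysis was possible because each bulk group holds 1 library and the replicate numbers of the single cells number the captured cells, not shared animals.

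The named calls and the epithelial and secreted factor medians kept their direction under every alternative run. With DESeq2 size factors the VMP median of all compared genes went to -0.010, and under TMM and DESeq2 scaling the SU ratio of Ovol1 fell below 0 and 3 instead of 5 endothelial genes were above 0 in SU. The numbers of genes called depended on the minimum level and fold. With TMM scaling 2029 genes were higher and 778 lower in both tissues, and with DESeq2 size factors 1948 and 818, with 15 genes higher in SU alone. At a minimum of 1 CPM the genes in 1 tissue alone (VMP higher, VMP lower, SU higher, SU lower) were 131, 119, 85 and 232, without a minimum 415, 120, 225 and 291, and at 50 CPM 1, 15, 4 and 24, with 1022 higher and 341 lower in both tissues. At 4-fold 1120 were lower in both and 80, 223, 152 and 242 moved in 1 tissue, and at 16-fold 313 were lower in both and 4, 25, 7 and 30 moved in 1 tissue. Requiring 3 tags in both tissues, an alternative chosen after seeing the data, gave 1236 higher.

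edgeR's quasi-likelihood test of assay with tissue as a block called 3604 genes higher and 2746 lower with Benjamini-Hochberg adjustment at 0.05, and 3738 and 2994 without adjustment at the same threshold. All 2397 and 569 genes of the fold rule were among them. Its spread is the disagreement between VMP and SU, not that of replicates.

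Of the 40 named calls, 35 were kept under TMM and under DESeq2 scaling, 40 with a pseudocount of 0.5 and 37 with 5 counts, where Cd86, Ccl7 and Tstd3 lost the call. The epithelial median ran from -5.95 to -3.90 in VMP and from -6.27 to -5.73 in SU, and the secreted factor median from -0.77 to -0.32 and from -0.55 to -0.07, over scalings and pseudocounts. A correction for gene length was not run, since lengths were held for 18.1% of the compared genes. Depth limits a gene without a tag to under 0.381 CPM in VMP and 0.365 in SU. A tag count of 0 does not tell a transcript that is absent from one that Tag-seq cannot read or whose tags were discarded.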
